A study of Capra hircus with 10 samples.

Results

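In the ovary, theca cells around the follicle make androgen under luteinizing hormone (LH), and the granulosa cells inside the follicle convert it to estrogen. The receptor LHCGR binds LH and raises cyclic AMP. CYP17A1, the 17-alpha-hydroxylase and 17,20-lyase, turns progestins into androgens with electrons from the flavoprotein POR, and CYB5A, cytochrome b5, favours its lyase step. INSL3, a peptide of the relaxin family, is a secreted product of theca cells. After ovulation, the wall of the follicle becomes the corpus luteum, which makes progesterone and also carries the LH receptor.

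These theca androgen and LH receptor genes were looked up by symbol among the protein-coding rows of the goat ovary table, and 3 of the 5 genes listed, INSL3, LHCGR and CYB5A, were found out of 20587 gene symbols. CYP17A1 stands in the table as LOC102182663, the name it has in RefSeq, where the goat genome assembly is ARS1.2, so 4 genes were described. POR was not analysed here. Each of the 4 is a single transcript in the table, namely NM_001314145.1 for CYP17A1, NM_001287234.1 for CYB5A, NM_001285579.1 for INSL3 and NM_001314279.1 for LHCGR.

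RNA came from whole ovaries of anhui white goats, 5 in the follicular phase and 5 in the luteal phase, with no treatment and 1 library per ovary. The ovaries came from a slaughterhouse, and neither the ages of the goats nor how the phase was judged is given in the sources used here. Whether the 5 ovaries of a phase came from 5 goats is not stated either, so the p-values measure the spread between these ovaries. Values are FPKM, which corrects fragment counts for transcript length and sequencing yield, so levels can be compared between genes. The FPKM of an ovary added up to 492324 to 540124 in the follicular phase and 452508 to 503276 in the luteal phase, and the read depth behind each value is unknown.

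The phases were compared with limma on log2(FPKM + 0.1), luteal minus follicular, so a negative log2 fold change is a lower level in the luteal phase. Of the 15359 genes tested, 43.7% passed an adjusted p of 0.05, with 15.9% higher and 27.8% lower in the luteal phase, and the median log2 fold change was -0.14. Calls higher in the luteal phase made up 36.3% of all calls, against 48.8% after each ovary was shifted to a common median and 52.5% on the TPM scale. With so large a share of all genes called, the size of a change and its overlap between ovaries say more than the call. The phases did not overlap in 28.4% of the genes tested.

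All 4 genes differed between the phases, but not in the same direction. LHCGR rose 7.23-fold in the luteal phase, as a ratio of mean FPKM, whereas INSL3 was 4.88-fold, CYP17A1 3.12-fold and CYB5A 1.50-fold higher in the follicular phase. In these whole ovaries, fewer cells of a type and less RNA per cell cannot be told apart.

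**Figure D1:**
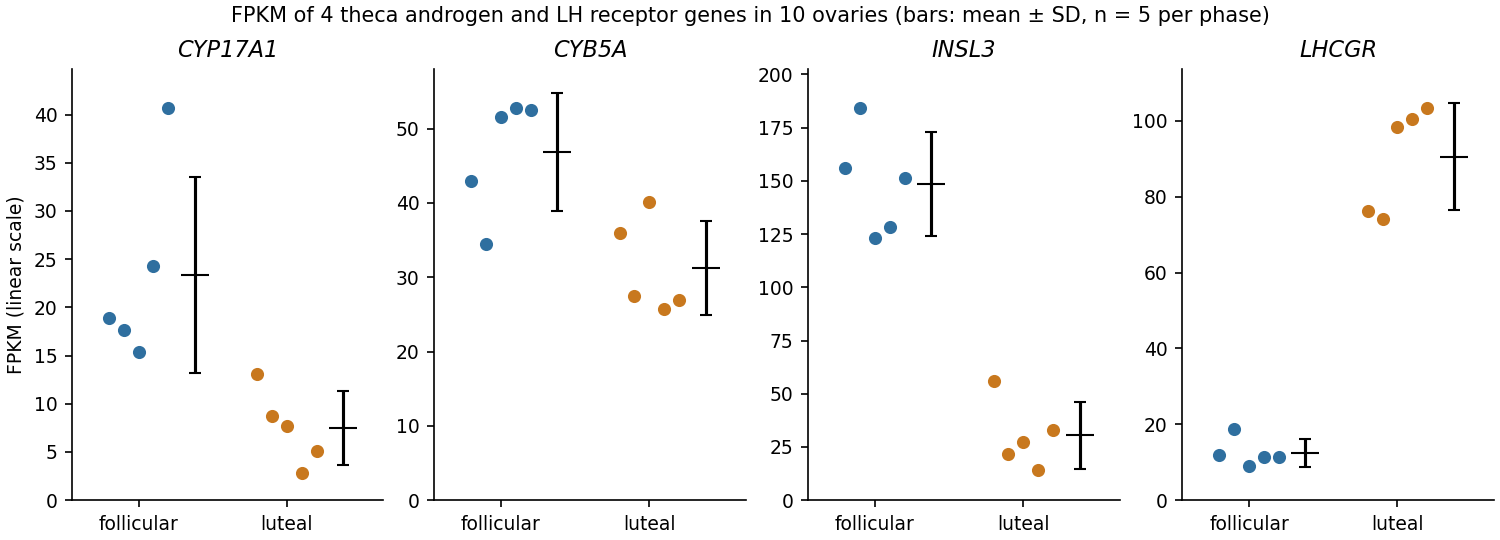
FPKM on linear axes of CYP17A1, CYB5A, INSL3 and LHCGR in each of 5 follicular and 5 luteal phase ovaries, in the order of their replicate numbers. Horizontal marks and bars give the mean and SD of a phase (n = 5). The phases are apart for CYP17A1, INSL3 and LHCGR and overlap for CYB5A.

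CYP17A1, the enzyme that commits the pathway to androgen, was at an FPKM of 18.9, 17.6, 15.3, 24.3 and 40.6 in follicular phase replicates 1 to 5. In luteal phase replicates 1 to 5 it was at 13.1, 8.76, 7.64, 2.82 and 5.10. Every luteal phase ovary lay below every follicular phase ovary, although the highest luteal value, 13.1, came close to the lowest follicular value, 15.3. The means were 23.4 ± 10.2 in the follicular phase and 7.48 ± 3.88 in the luteal phase (SD, n = 5 each). CYP17A1 fell by 1.71 on the log2 scale (standard error 0.38, 95% interval -2.53 to -0.89, limma adjusted p = 0.00390). Its spread was wide in both phases, with an SD of 43.7% of the mean in the follicular phase and 51.9% in the luteal phase. In rank among all genes tested, its mean level went from the 81.1st percentile in the follicular phase to the 53.6th in the luteal phase.

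CYB5A, the partner protein of the lyase step, was at 43.0, 34.5, 51.5, 52.7 and 52.5 in follicular phase replicates 1 to 5. It was at 35.9, 27.5, 40.1, 25.8 and 27.0 in luteal phase replicates 1 to 5. The phases overlapped, because follicular phase replicate 2 lay below luteal phase replicates 1 and 3. The means were 46.9 ± 7.99 and 31.3 ± 6.36 (SD, n = 5 each), and CYB5A fell by 0.59 on the log2 scale (standard error 0.15, 95% interval -0.92 to -0.25, limma adjusted p = 0.00977). Set against the median of all genes, the log2 difference was -0.45, the smallest of the 4 genes. When the 32842 transcripts that passed the filter were tested in place of genes, 17.3% were called, 7.47% higher and 9.82% lower in the luteal phase, and all 4 transcripts here were among them. For CYB5A limma's adjusted p was 0.0306. That transcript call was lost without any one of follicular phase replicates 3, 4 and 5 and luteal phase replicates 2, 4 and 5, with adjusted p between 0.0664 and 0.0739, and it was also lost on the TPM scale (limma adjusted p = 0.0925) and with eBayes without a trend (limma adjusted p = 0.0566). The call among genes stayed in all of these. CYB5A is expressed in many tissues and does not mark theca cells alone.

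INSL3, the secreted ligand, was the most abundant of the 4 genes in the follicular phase. Its FPKM was 156, 184, 123, 128 and 151 in follicular phase replicates 1 to 5, against 56.1, 21.8, 27.1, 14.3 and 32.9 in luteal phase replicates 1 to 5. The phases did not overlap, and the lowest follicular phase ovary exceeded the highest luteal phase ovary, replicate 1, by 67.3 FPKM. The means were 149 ± 24.3 and 30.4 ± 15.9 (SD, n = 5 each). INSL3 fell by 2.42 on the log2 scale (standard error 0.29, 95% interval -3.05 to -1.78, limma adjusted p = 9.81e-05), and only 9 of the 15359 genes tested had a lower log2 fold change. In the follicular phase, 363 genes had a higher mean FPKM than INSL3, and in the luteal phase 2256 genes did. The relative spread was larger in the luteal phase, with an SD of 52.2% of the mean against 16.4%.

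LHCGR, the receptor, moved the other way. In follicular phase replicates 1 to 5 its FPKM was 12.0, 18.8, 9.10, 11.5 and 11.3, and in luteal phase replicates 1 to 5 it was 76.4, 74.2, 98.3, 101 and 103. All luteal phase ovaries were above all follicular phase ovaries, with a wide gap between them. The means were 12.5 ± 3.66 and 90.5 ± 14.1 (SD, n = 5 each), and LHCGR rose by 2.87 on the log2 scale (standard error 0.17, 95% interval 2.49 to 3.25, limma adjusted p = 5.95e-07). Its mean level went from the 65.6th percentile of all genes tested in the follicular phase to the 95.5th in the luteal phase. It had the 117th highest log2 fold change of all genes tested.

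In levels per length, the order of the 4 genes differed between the phases. In the follicular phase it was INSL3, CYB5A, CYP17A1 and LHCGR. INSL3 was above CYB5A, and CYB5A above CYP17A1, in 5 of 5 ovaries, and CYP17A1 was above LHCGR in 4 of 5. In the luteal phase it was LHCGR, CYB5A, INSL3 and CYP17A1. LHCGR was above CYB5A, and INSL3 above CYP17A1, in 5 of 5 ovaries, while INSL3 and CYB5A were not separated, with INSL3 higher in 2 of 5.

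Log2 ratios between the genes within each ovary were compared between the phases to ask whether the genes changed by different amounts, since a ratio does not depend on the scaling of a whole ovary. All 6 pairs were tested with a two-sided exact permutation test and Benjamini-Hochberg adjustment over the 6, where 0.00794 is the smallest p that 5 ovaries against 5 allow. The log2 ratio of INSL3 to LHCGR was 3.59 ± 0.20 in the follicular phase and -1.70 ± 0.84 in the luteal phase, a difference of -5.29. For CYP17A1 to LHCGR the difference was -4.58, for LHCGR to CYB5A 3.46 and for INSL3 to CYB5A -1.83. These 4 are given as a description with no p, since the ranges of the single genes in each phase already set the ratios apart.

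Among the 3 genes that fell, CYP17A1 fell further than CYB5A, by -1.12 in the log2 ratio, from -1.07 ± 0.49 to -2.20 ± 0.68 (exact permutation p = 0.0238, adjusted 0.0286). This call was lost in 6 of the 10 tests that left out 1 ovary, where the adjusted p rose to 0.0571. The log2 ratio of CYP17A1 to INSL3 was -2.74 ± 0.59 in the follicular phase and -2.04 ± 0.51 in the luteal phase, and the difference of 0.71 did not pass the test (exact permutation p = 0.0873, adjusted 0.0873). Without follicular phase replicate 5, the ovary with the highest CYP17A1, it was 0.92 (exact permutation, adjusted p = 0.0381).

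**Figure D2:**
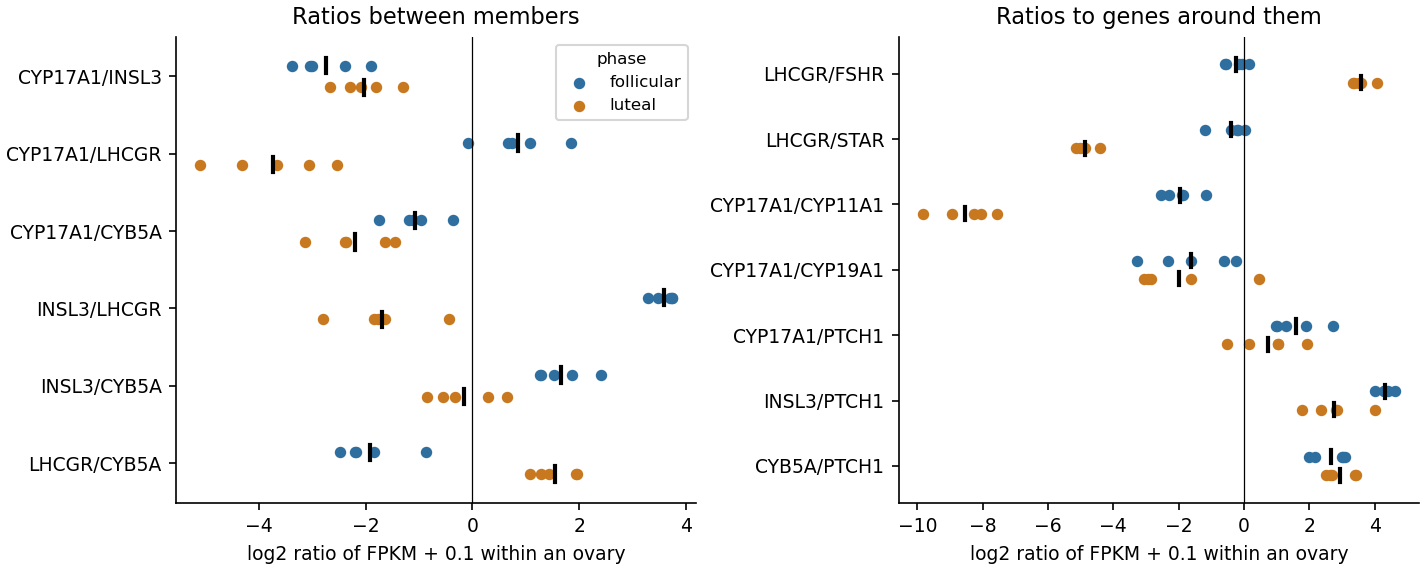
Log2 ratios of FPKM + 0.1 within an ovary, with 1 point per ovary (5 per phase) and a bar at the mean of each phase. On the left are the 6 pairs of the 4 genes, and on the right are 7 ratios to related genes. For INSL3 to LHCGR the follicular phase ovaries lie above 0 and the luteal phase ovaries below 0.

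How the genes varied together was examined in deviations from each phase's own mean, over 10 ovaries and with 100000 permutations within the phases, two-sided. None of the 6 pairs passed Benjamini-Hochberg adjustment over the 6 or an unadjusted p of 0.05 by permutation. For CYP17A1 and INSL3, Pearson's r was 0.629 (permutation p = 0.117, adjusted 0.233) while Spearman's rho was 0.345 (permutation p = 0.400, adjusted 0.486). Without luteal phase replicates 1 and 4, which had the highest and the lowest CYP17A1 and INSL3 of that phase, r was -0.27, so the relation rested on these ovaries. CYP17A1 and CYB5A had an r of 0.567 (permutation p = 0.116, adjusted 0.233) and a rho of 0.636 (permutation p = 0.0852, adjusted 0.486), with an r of 0.40 without the same ovaries. LHCGR and CYB5A had an r of -0.575 (permutation p = 0.109, adjusted 0.233) and a rho of -0.491 (permutation p = 0.176, adjusted 0.486), with an r of -0.21 without follicular phase replicates 2 and 3 and of -0.20 without replicate 2 alone.

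The other pairs were CYP17A1 and LHCGR (r = -0.377, permutation p = 0.262, adjusted 0.393; rho = -0.418, permutation p = 0.251, adjusted 0.486), INSL3 and CYB5A (r = 0.213, permutation p = 0.612, adjusted 0.735; rho = 0.0909, permutation p = 0.828, adjusted 0.828) and INSL3 and LHCGR (r = 0.0470, permutation p = 0.890, adjusted 0.890; rho = 0.309, permutation p = 0.405, adjusted 0.486). Without luteal phase replicates 1 and 4 their r was -0.23, -0.49 and 0.87, and without follicular phase replicate 3 alone that of CYP17A1 and LHCGR was -0.64. For INSL3 with LHCGR and for INSL3 with CYB5A, the deviations ran in opposite directions in the follicular and the luteal phase, so the pooled r describes neither phase, and 5 ovaries per phase are too few for an r of their own. With 10 ovaries these values leave wide room, and they do not show that the genes vary apart.

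The genes most like each of the 4 were taken as those with the highest r of such deviations, out of 12580 genes with a mean FPKM of at least 1. They are a description over 10 ovaries, with no p, because each is the best of many. For CYP17A1 they were TPPP2 (r = 0.915, rho = 0.952), SARS2 (r = 0.899, rho = 0.891) and TSPYL5 (r = 0.879, rho = 0.867). For INSL3 they were CHERP (r = 0.912, rho = 0.806), GADD45G (r = 0.902, rho = 0.733) and PGLS (r = 0.902, rho = 0.721). Without the 2 ovaries farthest from the median of INSL3, r was 0.699, 0.339 and 0.553 for these. For LHCGR they were GRAMD1C (r = 0.943, rho = 0.830), RFESD (r = 0.936, rho = 0.915) and SNAPC5 (r = 0.934, rho = 0.903). For CYB5A they were FAM179B (r = 0.979, rho = 0.915), GAL3ST4 (r = 0.956, rho = 0.976) and DTNA (r = 0.953, rho = 0.927). No gene was named for more than 1 of the 4.

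The steps around CYP17A1 were followed in a list of 12 genes of androgen synthesis and conversion, of which 9 were in the table and 8 were tested. Of these, 5 rose, 1 fell and 2 did not pass, and their median log2 fold change was 1.42 against -0.14 over all genes. These counts and those of the lists that follow stand beside 15.9% of all genes tested that rose and 27.8% that fell. The genes that rose furthest act before CYP17A1. STAR, which brings cholesterol into the mitochondrion, was at 16.6 ± 5.58 in the follicular phase and 2651 ± 507 in the luteal phase (log2 fold change 7.35, limma adjusted p = 1.00e-09). CYP11A1, which cleaves the side chain of cholesterol and stands in the table as LOC102173131, was at 87.0 ± 19.4 and 2495 ± 262 (log2 fold change 4.87, limma adjusted p = 3.36e-09). Its electron carriers FDX1 and FDXR rose by 3.40 and 1.64 on the log2 scale (limma adjusted p = 2.29e-09 and 5.54e-05).

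Downstream of CYP17A1, the genes did not move together. HSD17B1, which makes the more active 17-beta-hydroxysteroids, was at 58.5 ± 16.1 in the follicular phase and 25.4 ± 9.38 in the luteal phase (log2 fold change -1.24, limma adjusted p = 0.00520), with overlapping phases. CYP19A1, the aromatase that uses the androgen, ranged from 18.1 to 182 in the follicular phase and from 5.49 to 111 in the luteal phase and did not pass the test (log2 fold change -1.32, standard error 0.75, limma adjusted p = 0.174). The log2 fold change was -0.75 without luteal phase replicate 3, and over all fits that left out 1 ovary it ran from -1.83 to -0.75. With the replicate number as a block, a pairing that the labels do not give, CYP19A1 did pass (standard error 0.25, limma adjusted p = 0.00603). The next 3 genes of the list were named after their values were seen. HSD17B3, which makes testosterone in the testis, was listed at 0 in 8 of 10 ovaries and reached 0.0763 at most. HSD17B12, a reductase that also serves fatty acid elongation, rose from 32.7 ± 3.64 in the follicular phase to 75.8 ± 9.35 in the luteal phase (log2 fold change 1.21, limma adjusted p = 7.31e-06). SRD5A1, which reduces testosterone to dihydrotestosterone, was at 4.03 ± 0.872 and 4.69 ± 0.837 and did not pass (log2 fold change 0.22, limma adjusted p = 0.311).

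Another 7 ratios, of these genes to STAR, CYP11A1, CYP19A1, FSHR and PTCH1, were examined as a second family, chosen after the values were seen. The log2 ratio of CYP17A1 to CYP11A1 was -1.95 ± 0.53 in the follicular phase and -8.53 ± 0.89 in the luteal phase, a difference of -6.58, given as a description because both genes had separated the phases in opposite directions. The androgen enzyme was below the side chain cleavage enzyme in every ovary of both phases, and further below it in the luteal phase. The log2 ratio of CYP17A1 to CYP19A1 was -1.61 ± 1.24 in the follicular phase and -2.00 ± 1.50 in the luteal phase, and the difference of -0.39 did not pass (exact permutation p = 0.675, adjusted 0.675). Leaving out 1 ovary moved it between -1.01 (without luteal phase replicate 3) and -0.05 (without follicular phase replicate 3), and to -0.81 without follicular phase replicate 1. With so wide a spread between ovaries, this does not show that both enzymes fell alike.

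Electron transfer was followed in 11 genes, of which 6 were tested, none rose and 2 fell, a share near the 27.8% of all genes, with a median log2 fold change of -0.05 against -0.14 over all genes. None of the 6 passed with a common median, with quantile normalization or on the TPM scale. MTRR and NDOR1, diflavin reductases related to POR, fell by 0.38 and 0.40 on the log2 scale (limma adjusted p = 0.0175 and 0.0262). Both missed the threshold once the ovaries had a common median (limma adjusted p = 0.0582 and 0.0735). NDOR1 also missed it without follicular phase replicate 3 or luteal phase replicate 2, 3 or 4, with adjusted p of 0.0508 to 0.0668 from limma. Of 9 genes whose enzymes take electrons from POR, 5 were tested, 3 rose and 1 fell, with a median log2 fold change of 1.28. Those that rose were DHCR7 and SQLE of cholesterol synthesis, by 3.38 and 2.38 on the log2 scale, and the heme oxygenase HMOX2, by 1.28 (limma adjusted p = 3.63e-07, 9.99e-06 and 3.92e-05). HMOX1 fell by 0.62 (limma adjusted p = 0.0488), a call that 7 of the 9 other ways of processing did not keep. It was also lost without follicular phase replicate 3, 4 or 5 or luteal phase replicate 1, 3, 4 or 5, with adjusted p of 0.0503 to 0.112 from limma.

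**Figure D3:**
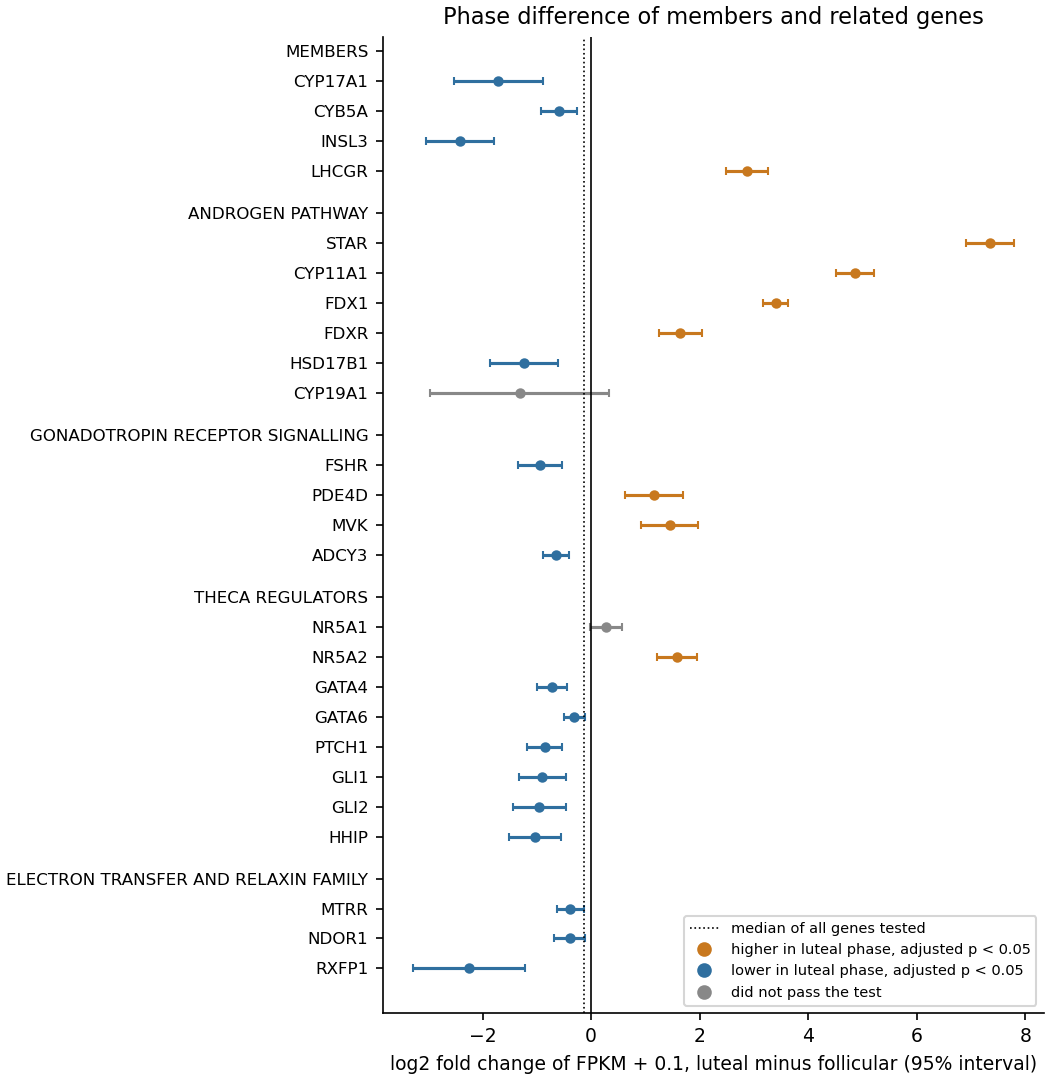
Log2 fold change of FPKM + 0.1, luteal minus follicular, with the 95% interval from limma, for the 4 genes and for named genes around them. The dotted line is the median of all genes tested, at -0.14. LHCGR lies on the side of STAR and CYP11A1, while CYP17A1, CYB5A and INSL3 lie on the other side.

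The family of INSL3 was scarcely seen. Of 9 listed ligands and receptors of the relaxin family, 7 were in the table and 1 passed the filter on low values. RXFP2, the receptor of INSL3, had an FPKM of 0.0175 to 0.126 in the follicular phase and of 0.0410 to 0.176 in the luteal phase, too low for the test. RXFP1, the receptor of relaxin, fell from 5.12 ± 1.99 in the follicular phase to 1.09 ± 0.792 in the luteal phase (log2 fold change -2.25, limma adjusted p = 0.00306), with overlapping phases. INSL3 was thus measured at 14.3 or more in every ovary, while the transcript of its receptor stayed near 0.

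Around LHCGR, 17 genes of gonadotropin receptor signalling were listed, of which 15 were tested, 3 rose and 6 fell, against 15.9% and 27.8% of all genes, with a median log2 fold change of -0.18 against -0.14 over all genes. On the TPM scale and with a common median, 3 rose and 4 fell. Of the 15359 genes tested, 2884 rose and 2610 fell on the TPM scale, and 2910 rose and 3055 fell with a common median. FSHR, the receptor of follicle-stimulating hormone in granulosa cells, fell from 14.7 ± 3.50 in the follicular phase to 7.56 ± 1.59 in the luteal phase (log2 fold change -0.94, limma adjusted p = 0.00210). The log2 ratio of LHCGR to FSHR was -0.24 ± 0.33 in the follicular phase and 3.57 ± 0.29 in the luteal phase, a difference of 3.81, again a description because both genes had separated the phases in opposite directions. In the follicular phase ovaries both receptors were thus at nearly equal levels per length. The log2 ratio of LHCGR to STAR went the other way, from -0.39 ± 0.47 to -4.86 ± 0.28, a difference of -4.47 that the ranges of both genes likewise fix and that is given with no p.

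MVK, mevalonate kinase, is also known to bind the messenger RNA of the LH receptor. It was at 7.51 ± 1.38 in the follicular phase and 21.5 ± 6.72 in the luteal phase (log2 fold change 1.45, limma adjusted p = 0.000735). PDE4D, a phosphodiesterase that breaks down cyclic AMP, rose by 1.16, and the adenylyl cyclase ADCY3, which makes it, fell by 0.65 on the log2 scale (limma adjusted p = 0.00300 and 0.000762).

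Of 15 transcription factors and hedgehog pathway genes known from theca cells and steroid-making cells, 15 were tested, 11 fell and 1 rose, with a median log2 fold change of -0.70. On the TPM scale 8 fell and 1 rose, where 2610 of the 15359 genes tested fell and 2884 rose. Granulosa cells send hedgehog ligands to the theca, and PTCH1, GLI1, GLI2 and HHIP belong to the response. PTCH1, the hedgehog receptor and a target of the pathway, fell from 7.37 ± 1.58 to 3.97 ± 0.488 (log2 fold change -0.86, limma adjusted p = 0.000928). GLI1, GLI2 and HHIP fell by 0.90, 0.96 and 1.03 on the log2 scale (limma adjusted p = 0.00385, 0.00538 and 0.00330). GATA4 and GATA6, which bind promoters of steroid enzyme genes, fell by 0.72 and 0.31 (limma adjusted p = 0.00110 and 0.0130), though GATA6 did not pass on the TPM scale (limma adjusted p = 0.131). NR5A1, the nuclear receptor that drives steroid enzyme genes, was at 30.1 ± 3.50 in the follicular phase and 36.8 ± 7.04 in the luteal phase and did not pass the test (log2 fold change 0.27, limma adjusted p = 0.121). Without luteal phase replicate 3 it did pass, at a log2 fold change of 0.39 (limma adjusted p = 0.0118). NR5A2, its relative, rose by 1.58 (limma adjusted p = 4.34e-05).

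Set against PTCH1 within each ovary, INSL3 fell further, with a difference in the log2 ratio of -1.56 (exact permutation p = 0.00794, adjusted over the 7 ratios 0.0139). CYP17A1 had a difference of -0.85 and CYB5A of 0.27, and neither passed (exact permutation p = 0.183 and 0.421, adjusted 0.256 and 0.491). Leaving out 1 ovary moved the first between -1.15 (luteal phase replicate 1 left out) and -0.54 (replicate 4 of that phase left out) and the second between 0.10 (without follicular phase replicate 2) and 0.38 (without follicular phase replicate 5). PTCH1 was chosen for these ratios after its values were seen.

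Markers of other cells moved with the phase beside these genes. Of 9 luteal markers 8 were tested, 7 rose and 1 fell. The marker that fell was PGR, from 15.2 ± 3.61 in the follicular phase to 6.91 ± 1.26 in the luteal phase (log2 fold change -1.10, limma adjusted p = 0.000793). OXT, oxytocin of the ruminant corpus luteum, was at 0.322 to 3.05 in the follicular phase and at 1021 to 2607 in the luteal phase. TIMP1, an inhibitor of metalloproteinases, was at 172 to 368 and at 5322 to 6651. The summed FPKM of the luteal list was 263 to 439 in the follicular phase and 9523 to 12168 in the luteal phase. Most of the luteal phase sums came from TIMP1, STAR and OXT. All 6 endothelial markers rose, with summed FPKM of 84.7 to 98.6 in the follicular phase and 192 to 248 in the luteal phase. Their part in the results above was not tested.

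Of 9 granulosa markers 6 fell and none rose, led by AMH and INHBB, with summed FPKM of 271 to 1199 in the follicular phase and 111 to 706 in the luteal phase. Most of these sums came from INHA, INHBA and CYP19A1, with follicular phase means of 279, 144 and 87.7. These markers did not pass (limma adjusted p = 0.149, 0.162 and 0.174), so the sums do not give the size of the called falls. Of 7 oocyte markers 5 fell and none rose, with follicular phase sums of 14.6 to 41.0 and luteal phase sums of 7.46 to 15.9. Of 8 stroma markers 2 rose and 3 fell, with sums of 2293 to 2959 and 2142 to 3859 in the same order. Of 5 blood markers only ALAS2 was in the table, at no more than 0.0168 in any ovary. Their part in the results above was not tested either. The granulosa list shares FSHR, CYP19A1 and HSD17B1 with the lists above, the luteal list shares STAR, and the stroma list shares NR2F2 and TCF21.

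The genes next to each of the 4 on the chromosome were read from the ARS1.2 annotation, within 100 kb on either side, to see whether the neighbours moved too. None overlapped the 4 genes in that annotation. Of the 19 neighbours, 17 were tested and 9 passed, all of them lower in the luteal phase. Of all genes tested, 43.7% passed and 27.8% were lower. CNNM2, near CYP17A1, passed only just (limma adjusted p = 0.0494), and the calls of the neighbours under other scalings are not given here. JAK3, a kinase of cytokine receptors and the nearest gene on one side of INSL3, was at 18.0 ± 4.15 in the follicular phase and 7.46 ± 2.72 in the luteal phase (log2 fold change -1.30, limma adjusted p = 0.00117). GTF2A1L, next to LHCGR, fell by 1.22 (limma adjusted p = 0.000947), against the direction of LHCGR. LOC102182376, next to CYP17A1, fell by 1.24 (limma adjusted p = 0.00336), and TIMM21, next to CYB5A, did not pass (log2 fold change 0.16, limma adjusted p = 0.117). The neighbours were chosen by position, after the values of the 4 genes were seen.

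**Figure D4:**
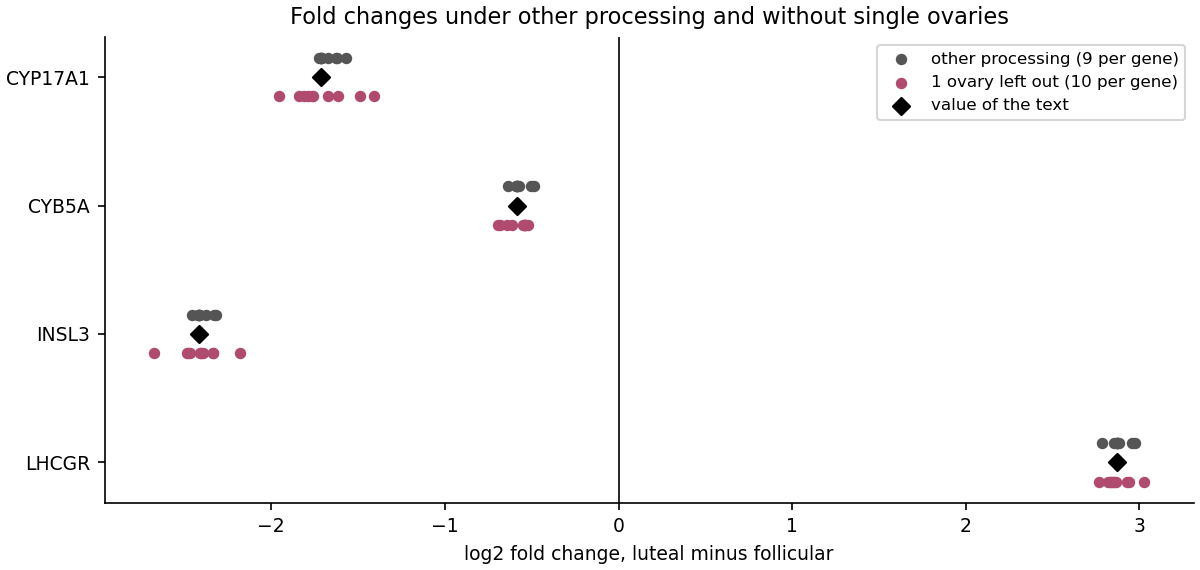
Log2 fold change, luteal minus follicular, of the 4 genes as given in the text (diamond), under 9 other ways of processing (upper points) and with 1 of the 10 ovaries left out (lower points). Every point of a gene lies on the same side of 0. The other filters, eBayes without a trend and the replicate block have the same fold change as the diamond.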

How the data were processed

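From rRNA-depleted, strand-specific, paired-end libraries, the authors deposited FPKM per transcript and ovary, computed with Cuffdiff after alignment in HISAT2 and assembly in StringTie. The genome build is not given in the sources used here. FPKM was summed by symbol over protein-coding rows. The members, gene lists and tests were chosen with earlier results of these data known. Genes that reached an FPKM of 0.1 in 5 or more ovaries were compared in R 4.3.3 with limma 3.58.1 (eBayes with trend) on log2(FPKM + 0.1), two-sided, with Benjamini-Hochberg adjustment over all genes, and likewise for transcripts. The fits were tested on simulated data. Listed genes missing by symbol were matched through RefSeq synonyms, and 89 of 109 were in the table. Other genes first listed are not reported here. Named genes are up to 4 called genes of each list with the largest change, and direct partners of the 4 genes. PTCH1 was named as a listed marker of theca cells. HSD17B3, HSD17B12, SRD5A1, ALAS2, PGR, INHA and INHBA stand outside this rule. Python 3.11.15 and scipy 1.17.1 gave the exact and permutation tests. The alternatives changed the pseudocount (1 or 0.01), the filter (none, or an FPKM of 0.5), the scaling (a common median, quantiles, TPM), the trend in eBayes (off) or the design (a block for the replicate number), or left out each ovary in turn. Ratios to partner genes were added after the values were seen. Shares of isoforms were not tested, as each gene has 1 transcript.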

Additional observations from a re-analysis of the deposited data

Results flagged for a closer look

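Among the 94 groups of 5 ovaries examined, for the 4 genes and the named genes in each phase, 2 had an ovary far from the others by Dixon's test, which chance alone gives in about 5% of groups. Neither of them concerned CYP17A1, CYB5A, INSL3 or LHCGR. NR2F2, a nuclear receptor of stroma and theca, was at 21.3 in luteal phase replicate 3, against 13.9 to 16.0 in the others. In follicular phase replicate 2 it was at 19.4, against 24.7 to 26.5 in the other follicular phase ovaries.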

How the results depend on the processing

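CYP17A1, INSL3, LHCGR and CYB5A kept their direction and their call under 9 other ways of processing and in the 10 fits without single ovaries, and their highest adjusted p was 0.0366 (CYB5A on the TPM scale). The other filters, eBayes without a trend and the replicate block leave a fold change as it is, so only the call could change there. Leaving out 1 ovary gave log2 fold changes of -1.95 to -1.41 for CYP17A1, -2.67 to -2.18 for INSL3, 2.77 to 3.03 for LHCGR and -0.69 to -0.52 for CYB5A. It also gave log2 ratio differences of 0.52 to 0.92 for CYP17A1 to INSL3 and of -1.31 to -0.89 for CYP17A1 to CYB5A, and r of -0.23 to 0.42 for INSL3 and LHCGR and of -0.0593 to 0.462 for INSL3 and CYB5A, whose sign changed. For the other pairs r ran from 0.31 to 0.72 for CYP17A1 and INSL3, from -0.64 to -0.27 for CYP17A1 and LHCGR, from 0.46 to 0.68 for CYP17A1 and CYB5A and from -0.81 to -0.20 for LHCGR and CYB5A. The number of genes called ran from 5488 to 7020 over all alternatives. Equal replicate numbers of the phases are not tied to each other by the labels. Deviations of same-numbered ovaries had r of 0.0258 to 0.199, all of them positive, and 5 of 10 ovaries were closest to their own number. Each ovary had 5 ovaries of the other phase to be closest to, so 5 of 10 is more than an even spread would give. Whether same-numbered ovaries belong together is thus not settled. With the replicate number as a block, 7020 genes were called, and the log2 fold changes stayed, since a balanced block cannot move them. CYP17A1 had a limma adjusted p of 0.0133, and CYP19A1 and NR5A1 passed at 0.00603 and 0.0440. Under the block 9 of 9 granulosa markers were called lower in the luteal phase, against 6 without it. Of gonadotropin receptor signalling 4 in place of 6 genes were called lower, and of electron transfer 1 in place of 2. As a transcript, CYP17A1 did not pass under the block (adjusted p = 0.0529). Of 816 values of the named genes, 786 kept their call, 27 lost it, 3 gained it and none changed sign. Depth per ovary is unknown.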
